A study of Drosophila melanogaster with 12 samples.

Results

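The sex determination hierarchy of Drosophila melanogaster was followed through 7 genes, chosen by name: Sxl, tra, tra2, dsx, fru, ix and her. All 7 were found by symbol among the 17558 rows of a table of read counts per gene, and all 7 passed the filter on low counts, which left 9686 genes for testing. Midguts were taken from adult virgin flies of both sexes and sequenced as poly-A RNA in 12 libraries, 3 for each combination of sex and genotype. The series is titled for Myc and sex differences in gut lipids, and it was designed to test RNA interference against dsx in each sex.

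Female flies with dsxRNAi were set against control females, and male flies with dsxRNAi against control males. In dsxRNAi flies an interference construct against dsx was carried over mex1-Gal4, with tub-Gal80ts over a wild-type chromosome. Control flies carried mex1-Gal4 over a wild-type chromosome and UAS-GFP over tub-Gal80ts, so they had no interference construct and expressed GFP in its place. For both sexes and both genotypes the labels give y[1] v[1] over w[*]. All flies thus shared the driver mex1-Gal4, which drives expression in the absorptive enterocytes of the gut, and the temperature-sensitive repressor Gal80ts. They were kept 6 days at 18 degrees C, where the repressor blocks the driver, then 4 days at 29 degrees C, and were sampled at day 10. The driver thus targets enterocytes, while the RNA came from the whole midgut with its stem cells, enteroendocrine cells, muscle and nerves. Effects of dsxRNAi below are differences between these genotypes. In them the interference, the GFP of controls and other differences between the stocks cannot be told apart. Nothing in the labels says that replicates came from separate groups of flies, so p-values measure only the spread between these libraries, which may be technical.

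In this hierarchy the female switch protein Sxl, an RNA-binding protein, directs the splicing of its own transcript and of tra. Tra, present as a full-length protein in females, acts with Tra2, made in both sexes, to direct female splicing of dsx and some fru transcripts. Both dsx and fru encode transcription factors. In males these splicing steps default to male forms, and both dsx forms are active proteins. Ix is a cofactor of the female Dsx protein, and Her is a zinc finger protein that acts early on Sxl and later in sexual differentiation. The choice of sex is thus made mainly by splicing, and gene-level counts, which sum all forms of a gene, do not show which form was present.

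Total counts per library ran from 36212113 to 45068874. Levels are normalised CPM: each gene's reads over the library total, after TMM (trimmed mean of M values) adjustment. All 8 enterocyte markers were present in every group, with a summed level of 57000 to 59150 CPM in dsxRNAi females, 40900 to 59010 in control females, 70080 to 76970 in dsxRNAi males and 52620 to 57530 in control males. The library of control male 1 stood apart in 1 respect. It carried 3662 counts of 6 male accessory gland markers, against 0 to 5 in the other 11 libraries. Without it no call of the 7 genes changed except that of dsx averaged over the sexes, and values without it stand beside the results for Sxl, tra, dsx and fru. Testis markers summed to at most 11 counts and ovary markers to at most 80 in any library.

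Of the 7 genes, 3 differed between the sexes, and they did so in both genotypes: Sxl and tra were higher in females and dsx was higher in males. Between dsxRNAi and control flies of the same sex, dsx in males was the only one of the 7 to pass the test. tra2, ix and her passed no test, and fru lay near the threshold in controls. Under dsxRNAi 3 of the 7 were called between the sexes, 2 higher and 1 lower in females, where 14.8% of all tested genes were called, 7.76% higher and 7.06% lower. The same 3 of 7 were called in controls, where 20% of all tested genes were, 10.7% higher and 9.27% lower in females. Averaged over the genotypes the background was 31.1% (16.4% higher, 14.8% lower), and again these 3 of 7 were called. Calls are those of edgeR's quasi-likelihood test with Benjamini-Hochberg adjustment over all 9686 genes, at a threshold of 0.05. Ranges of the sexes did not overlap for Sxl, tra, dsx and ix under dsxRNAi, as for 35.7% of all tested genes, nor for Sxl, tra, dsx and fru in controls, as for 37.4%.

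**Figure D1:**
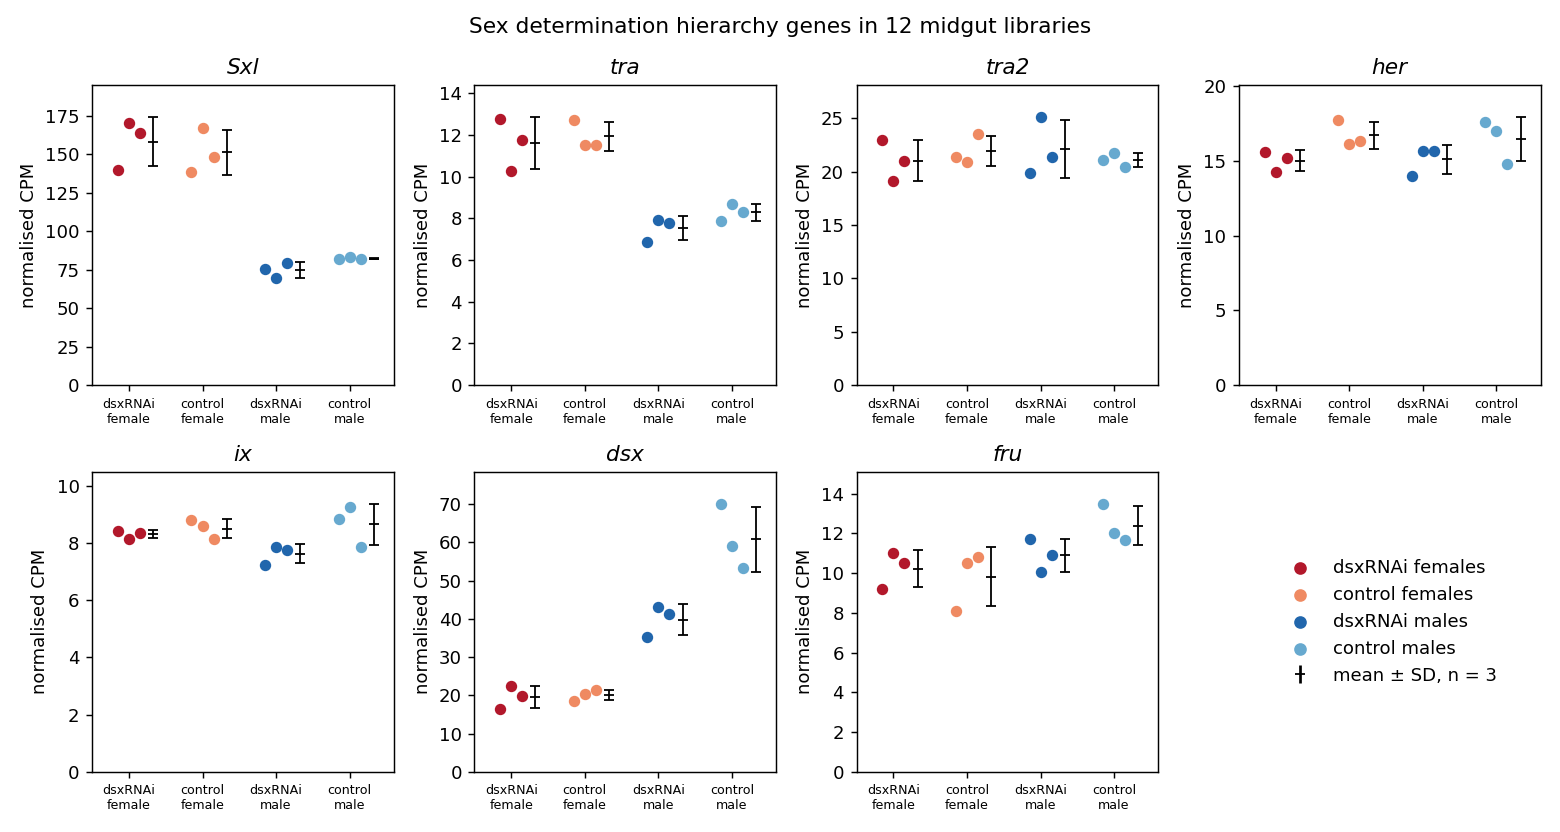
Normalised CPM of each gene in every library (points), with mean ± SD of 3 libraries per group (black). Female points of Sxl (138 to 170 CPM) and tra lie above all male points, male points of dsx (35.2 to 70.1 CPM) lie above all female points, and tra2, her and ix overlap between the sexes.

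Sxl, the switch gene at the top of the hierarchy (X, 7074550 to 7098053, minus strand, 25 annotated transcripts), was higher in females of both genotypes. It stood at 140, 170 and 164 CPM in dsxRNAi females and at 138, 167 and 148 CPM in control females. In dsxRNAi males it stood at 75.1, 69.5 and 79.4 CPM, and in control males at 81.9, 82.9 and 81.8 CPM. The 6 female libraries all lay above the 6 male ones, with a lowest female value of 138 CPM and a highest male value of 82.9 CPM.

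The female level was 2.12-fold the male level under dsxRNAi (log2 1.08, SE 0.09, adjusted p = 4.47e-05). In controls it was 1.84-fold (log2 0.88, SE 0.09, adjusted p = 9.58e-05), and without control male 1 the log2 difference was 0.88 (adjusted p = 0.00088). Sxl lies on the X, of which females have a pair. Among the 1590 tested X-linked genes the median log2 difference between control females and control males was 0.07, against -0.02 over 7808 genes of the autosomal arms, and 5.47% of the X-linked genes had a larger difference than Sxl. Transcripts of the gene were also counted in every male library, at 2665 to 2709 counts in dsxRNAi males and 3535 to 3700 in control males.

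dsxRNAi did not change Sxl beyond the spread. In males the libraries of the 2 genotypes did not overlap, at 69.5 to 79.4 CPM in dsxRNAi males and 81.8 to 82.9 CPM in control males, but the difference was small and not called (log2 -0.14, 95% interval -0.34 to 0.06, adjusted p = 0.345). Such separation held for 38.6% of all tested genes in males. In females the log2 change was 0.07 with an interval of -0.13 to 0.26 (adjusted p = 0.837).

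tra (3L, 16590059 to 16591050, minus strand), whose splicing Sxl directs, was also higher in females. It stood at 12.8, 10.3 and 11.8 CPM in dsxRNAi females and at 12.7, 11.5 and 11.5 CPM in control females. In dsxRNAi males it stood at 6.88, 7.93 and 7.80 CPM, and in control males at 7.85, 8.68 and 8.31 CPM. No male library reached the lowest female one.

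The sex difference of tra was 1.54-fold under dsxRNAi (log2 0.62, SE 0.10, adjusted p = 0.00247) and 1.44-fold in controls (log2 0.53, SE 0.10, adjusted p = 0.00277), or log2 0.49 without control male 1 (adjusted p = 0.0157). As with Sxl, the effect of dsxRNAi was within the spread in both sexes (log2 -0.04, interval -0.25 to 0.17 in females; log2 -0.14, interval -0.36 to 0.08 in males). The gene is short, with 862 bases of exon, of which 74 (8.58%) are shared with l(3)73Ah on the opposite strand. The library kit keeps strand, but the strand setting of the counting is not given in the sources used here. l(3)73Ah itself averaged 13.3 ± 0.901 CPM in dsxRNAi females, 15.1 ± 1.47 in control females, 13.2 ± 0.160 in dsxRNAi males and 14.96 ± 1.43 in control males (SD, n = 3 each), and was called in no contrast.

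tra2 (2R, 14602004 to 14604337), the splicing partner of Tra, did not differ between groups beyond the spread. Its means were 21.0 ± 1.93 CPM in dsxRNAi females, 21.9 ± 1.42 in control females, 22.1 ± 2.69 in dsxRNAi males and 21.1 ± 0.660 in control males (SD, n = 3 each). Averaged over the genotypes, females differed from males by a log2 value of -0.01 with an interval of -0.15 to 0.14 (adjusted p = 0.942). Its variation over the 12 libraries was 7.63% of the mean, about the same as the 7.73% seen within groups.

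her (2L, 16677185 to 16679691) stood at 15.6, 14.3 and 15.2 CPM in dsxRNAi females, 17.7, 16.1 and 16.3 in control females, 13.98, 15.7 and 15.7 in dsxRNAi males and 17.6, 17.0 and 14.8 in control males. It did not differ between the sexes beyond the spread (averaged log2 0.01, interval -0.12 to 0.14). Averaged over the sexes it was lower under dsxRNAi by a log2 value of -0.14 (interval -0.27 to -0.01), which did not pass after adjustment (adjusted p = 0.148). In females the 2 genotypes did not overlap, as was so for 17% of all tested genes.

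ix (2R, 11359437 to 11360163), the cofactor of female Dsx, was the least variable of the 7, at 6.70% of its mean over 12 libraries. It stood at 8.15 to 8.43 CPM in dsxRNAi females, 8.13 to 8.79 in control females, 7.24 to 7.85 in dsxRNAi males and 7.85 to 9.24 in control males. The change in males was the largest it showed (log2 -0.18, interval -0.37 to 0.01, adjusted p = 0.187).

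dsx (3R, 7924323 to 7967408, minus strand, 7 annotated transcripts), the target of the interference, varied most, by 52% of its mean over the 12 libraries. In 90.4% of tested genes that variation was smaller. It stood at 16.5, 22.3 and 19.9 CPM in dsxRNAi females and at 18.6, 20.3 and 21.3 CPM in control females. In dsxRNAi males it stood at 35.2, 43.1 and 41.2 CPM, and in control males at 70.1, 59.1 and 53.2 CPM. Control males were highest, dsxRNAi males intermediate without overlap on either side, and the 2 female groups were lowest and overlapped each other.

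dsx fell in dsxRNAi males, whose libraries still lay above every female one. The change was -34.5% with a 95% interval of -45.6% to -21.0% (log2 -0.61, SE 0.12, adjusted p = 0.00643). It was the only one of the 7 genes called among males, where 14.6% of all tested genes were called, 8.05% higher and 6.59% lower. Without control male 1, whose dsx level was the highest and which held the accessory gland counts, the log2 change was -0.49 (adjusted p = 0.0257). It stayed called with each of the other 5 male libraries left out.

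In females no fall was measured: the change was -2.58% with an interval of -19.5% to 17.9% (adjusted p = 0.946), and none of the 7 genes was called where 3.46% of all tested genes were, 1.91% higher and 1.55% lower. DESeq2 called none of the 7 either, and 0 of the 7 had an unadjusted p under 0.05. The point estimate of the fall in males lies outside that interval, but it has an interval of its own. Counts of the whole midgut do not separate dsx RNA of enterocytes from that of other cells. The effect in females minus that in males (the interaction) was 0.57 on the log2 scale, with an interval of 0.19 to 0.96. By edgeR it did not pass over all genes (unadjusted p = 0.00702, adjusted p = 0.172), nor by DESeq2 (adjusted p = 0.103). For the interaction 0 of the 7 genes were called, 1 of them had an unadjusted p under 0.05, and 0.805% of all tested genes were called, 0.258% higher and 0.547% lower. Averaged over the sexes, dsx was called lower (log2 -0.32, adjusted p = 0.0281), the only one of the 7, where 14.4% of all tested genes were called, 7.7% higher and 6.68% lower. That average call was lost when any of 8 libraries was left out: dsxRNAi females 1 and 3, control females 2 and 3, dsxRNAi males 1 and 3 and control males 1 and 2. With each of the 12 left out in turn, the averaged log2 change ran from -0.37 to -0.27 and the adjusted p from 0.0184 to 0.0749.

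**Figure D2:**
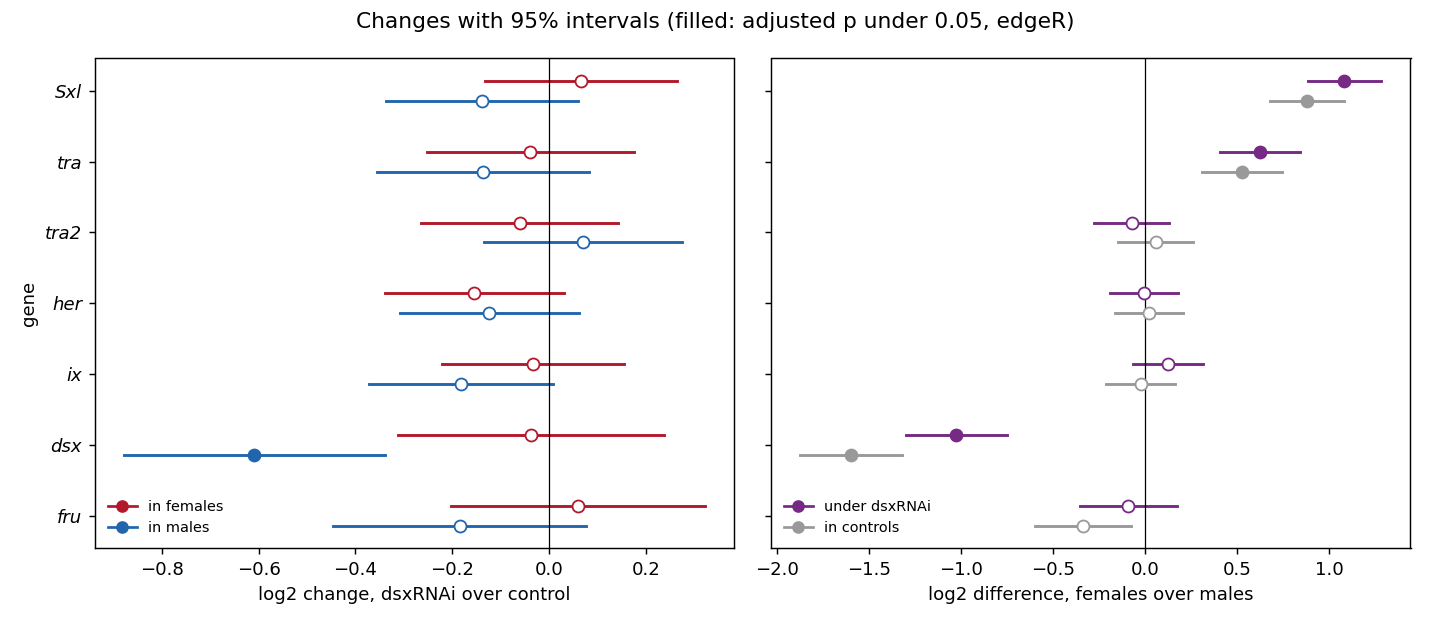
log2 changes of the 7 genes with 95% intervals, dsxRNAi over control within each sex (left) and females over males within each genotype (right). Filled points passed edgeR's test: on the left only dsx in males (-0.61), on the right Sxl, tra and dsx in both genotypes.

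The sex difference of dsx had a smaller estimate under dsxRNAi than in controls. Males held 2.04-fold the female level under dsxRNAi (log2 females over males -1.03, SE 0.13, adjusted p = 0.000571) and 3.03-fold in controls (log2 -1.60, SE 0.13, adjusted p = 1.57e-05). The test of that difference is the interaction given above. In controls without control male 1 the log2 difference was -1.48 (adjusted p = 8.04e-05). The male comparison of genotypes and the control comparison of sexes share the control male libraries.

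Whole midguts were sequenced, so fewer cells of a type and less RNA per cell cannot be told apart. Markers of other cell types moved with dsx among males, where 6.59% of all tested genes were called lower and 8.05% higher, and between the control sexes, where 9.27% were called lower in females. Enteroendocrine markers summed to 604 to 676 CPM in dsxRNAi males and 764 to 805 CPM in control males. All 11 were detected and 5 were called lower, namely AstA, AstC, CCHa1, Mip and Orcokinin. NPF and Dh31 did not fall, with means of 45.7 and 17.5 CPM in dsxRNAi males and 42.8 and 17.4 CPM in control males. Neither was called among males, and the means of the other enteroendocrine markers were lower in dsxRNAi males. Between control females and control males 9 of these 11 were called lower in females, at sums of 471 to 593 CPM in females. Neuron markers summed to 16 to 19.4 CPM in dsxRNAi males and 21.6 to 24.6 CPM in control males, with 1 of 4 called lower, elav. In control females they summed to 15.5 to 19.1 CPM, with 3 of 4 called lower than in control males. Of 9 visceral muscle markers 1 was called lower in dsxRNAi males, sls. The 9 summed to 2075 to 2188 CPM in dsxRNAi males and 2031 to 2101 CPM in control males, with a median log2 change of 0.02. In control females they summed to 1600 to 1979 CPM, with 4 of 9 called lower than in control males (how, Mlp60A, Tm2 and up). Over the genotypes 7 of 9 were called lower in females, where 14.8% of all tested genes were called lower. Averaged over the sexes, Mlc2 and Mlp60A were called higher under dsxRNAi and sls lower, where 7.7% of all tested genes were called higher and 6.68% lower. The summed level of enterocyte markers, given above, was higher in dsxRNAi males, with 3 of 8 called higher (Amy-p, Jon65Aiii and Npc1b). Much of that sum was alphaTry, at a mean of 26040 CPM in dsxRNAi males and 23400 in control males. The markers did not all rise. The mean of nub was 144 CPM in dsxRNAi males and 172 in control males, and that of Myo31DF 509 and 558. Neither was called, and the means of the other enterocyte markers were higher in dsxRNAi males. The 8 tested progenitor markers were called in no contrast, but their median log2 change in males was -0.37, against -0.26 for enteroendocrine markers. All 9 of the progenitor list summed to 57.3 to 87.8 CPM in dsxRNAi males and 87.8 to 118 CPM in control males. Of the other lists, 1 trachea marker (trh) and 1 of 5 Malpighian tubule markers (NtR) were called lower in dsxRNAi males. The part of these cell types in the dsx result was not tested.

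Reads of dsx could also overlap with lds, a gene on the opposite strand that shares 169 exon bases (1.84% of dsx exon length). lds averaged 7.14 ± 2.58 CPM in dsxRNAi females, 6.00 ± 1.69 in control females, 3.42 ± 0.851 in dsxRNAi males and 3.74 ± 0.479 in control males (SD, n = 3 each). It was called higher in females under dsxRNAi and in the average. The part of lds reads in the dsx count was not tested. Any reads of the construct that match dsx would be part of its count, and their number was not measured.

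fru (3R, 18414273 to 18545586, minus strand, 15 annotated transcripts), known for its role in male courtship neurons, was the other transcription factor gene at the end of the hierarchy. It stood at 9.17, 11 and 10.5 CPM in dsxRNAi females and at 8.10, 10.5 and 10.8 CPM in control females. In dsxRNAi males it stood at 11.7, 10.1 and 10.9 CPM, and in control males at 13.5, 12.03 and 11.7 CPM. Control males lay above all control females, while the dsxRNAi groups overlapped.

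The control difference was small and missed the threshold (log2 females over males -0.34, interval -0.60 to -0.08, adjusted p = 0.0672; log2 -0.27 and adjusted p = 0.217 without control male 1), as did the average over genotypes (log2 -0.21, adjusted p = 0.0746). The average passed when genes with low counts were filtered more strictly (minimum count of 50, log2 -0.23, adjusted p = 0.0497). The change under dsxRNAi in males, log2 -0.19 with an interval of -0.45 to 0.08, did not pass (adjusted p = 0.335). In females it was 0.06 with an interval of -0.20 to 0.32 (adjusted p = 0.9).

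Levels were compared between genes only per length, as normalised CPM per kb of annotated exon, which for genes with many alternative exons (dsx, fru, Sxl) can divide by more sequence than any 1 transcript holds. In dsxRNAi females the order was Sxl at 17.2, tra at 13.5, ix at 11.4, tra2 at 11.4, her at 6.31, dsx at 2.13 and fru at 0.555 CPM per kb. Control females had nearly the same order, with Sxl at 16.4, tra at 13.8, tra2 at 11.9, ix at 11.7, her at 7.03, dsx at 2.19 and fru at 0.532 CPM per kb. The ranges of tra2 and ix overlapped in both female groups. In dsxRNAi females tra, at 11.9 to 14.8, also overlapped tra2, at 10.3 to 12.4 CPM per kb, but not ix.

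Male midguts had another order, in which Sxl and tra lay below tra2 and ix. In dsxRNAi males tra2 stood at 12, ix at 10.5, tra at 8.74, Sxl at 8.12, her at 6.35, dsx at 4.34 and fru at 0.591 CPM per kb. In control males ix stood at 11.9, tra2 at 11.4, tra at 9.61, Sxl at 8.94, her at 6.92, dsx at 6.63 and fru at 0.672 CPM per kb. The ranges of tra2 and ix overlapped in both male groups, those of tra and Sxl in dsxRNAi males, and those of her and dsx in control males. dsx thus reached the level of her in control males alone among the 4 groups, and fru was lowest in every group.

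**Figure D3:**
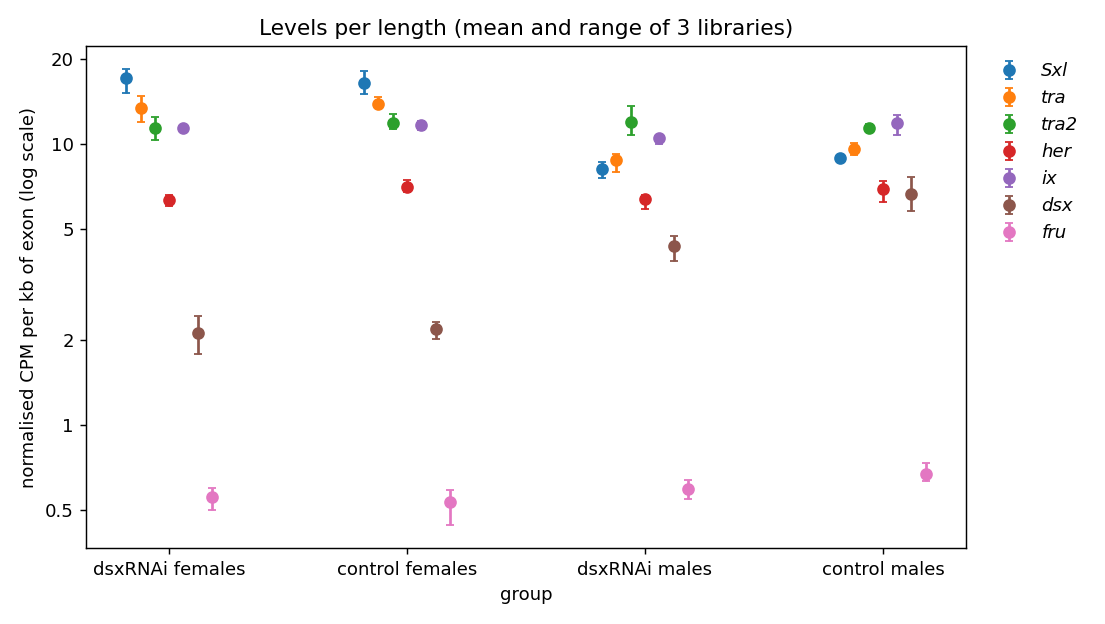
Normalised CPM per kb of exon for the 7 genes in each group on a log axis, as mean (point) and range (bar) of 3 libraries. Sxl and tra lead in both female groups (17.2 and 13.5 in dsxRNAi females), tra2 and ix lead in both male groups, and dsx overlaps her in control males.

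Genes with the pattern most like a member were sought among 7605 genes, those whose mean log2 CPM reached 1. Likeness was the root mean square difference of log2 CPM over the 12 libraries, each gene centred on its own mean, and is a description without a test. For dsx, whose own values spread by 0.71 around their mean, the closest were CG31288 at 0.21, the carbonic anhydrase gene CAH2 at 0.23 and Appl, the fly homologue of amyloid precursor protein, at 0.23. CG31288 averaged 162 CPM in dsxRNAi females, 146 in control females, 285 in dsxRNAi males and 368 in control males, and CAH2 261, 249, 453 and 564 CPM in the same groups. Neither was called lower in dsxRNAi males (adjusted p = 0.0554 for CG31288 and 0.0844 for CAH2).

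The closest to Sxl were the noncoding genes CR44892 at 0.12 and CR43493 at 0.16 and the ribosomal protein gene RpS14b at 0.17, whose reads may be split with its near-identical copy. For tra they were HP1b, a heterochromatin protein gene, at 0.07, Sep4 at 0.08 and CG8915 at 0.09. All 6 of these lie on the X, and tra itself is on 3L. Among all tested genes 1590 lie on the X and 7808 on the autosomal arms. Their median log2 differences of females over males, averaged over the genotypes, were 0.075 and -0.006. A link between likeness and the X was not tested. For fru the closest were the clock gene tim at 0.07, IA-2 at 0.07 and the pseudogene CR34262 at 0.10. The own values of Sxl, tra and fru spread by 0.50, 0.30 and 0.18 around their means, less than the 0.71 of dsx.

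Around the hierarchy, 5 further lists were read in the same fit. Over the genotypes, 16.4% of all tested genes were called higher and 14.8% lower in females. In the list of X counting and early Sxl establishment, 5 of 8 genes were tested. Of these, 2 were called higher in females over the genotypes, sisA and emc, and none lower. sisA, which activates Sxl in the early embryo, had 11 to 18 counts per library in dsxRNAi females, 7 to 16 in control females, 0 to 1 in dsxRNAi males and 4 to 12 in control males. Its lower level in dsxRNAi males was called (adjusted p = 0.0144) but not without dsxRNAi male 2 or control male 2, and rests on a few counts. emc, an inhibitor of helix-loop-helix factors, averaged 180 ± 30.1 CPM in dsxRNAi females, 140.0 ± 6.18 in control females, 139 ± 27.5 in dsxRNAi males and 109.9 ± 5.03 in control males (SD, n = 3 each). gro, a corepressor, stood at 79.8 ± 4.86, 81.9 ± 2.96, 73.9 ± 2.39 and 81.3 ± 1.59 CPM in the same groups, and sc, an activator of Sxl, at 8 to 30 counts per library. Neither was called. In the average over the sexes emc was called higher and sisA lower under dsxRNAi (adjusted p = 0.0385 and 0.0435), calls lost in 10 and 9 of the 12 fits with a library left out.

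All 10 genes of the list for Sxl splicing and the m6A writer were tested, and 3 were called higher in females over the genotypes and none lower, where 31.1% of all tested genes were called in either direction. The median log2 difference of the 10 was 0.06, against 0.005 over all tested genes. snf, a spliceosomal protein that acts in Sxl splicing, was 1.31-fold higher in females under dsxRNAi (25.8 ± 1.29 CPM in females and 19.6 ± 0.983 in males, adjusted p = 0.00287) and 1.30-fold in controls (26.3 ± 1.35 and 20.3 ± 0.554 CPM, adjusted p = 0.00171). nito and YT521-B, the m6A reader, were the other two, at log2 0.19 and 0.12 (adjusted p = 0.0344 and 0.0321). The call of nito was lost in 8 of the 12 fits with a library left out (all but those without dsxRNAi female 1, control female 1, dsxRNAi male 2 or control male 3). That of YT521-B was lost in 7 of them, without dsxRNAi female 2, control females 2 or 3, dsxRNAi males 1 or 3, or control males 1 or 2. The call of snf was kept in all 12. fl(2)d, a component of the m6A writer, was not called, at 51.9 ± 2.07 CPM in dsxRNAi females, 51.2 ± 8.29 in control females, 49.4 ± 1.62 in dsxRNAi males and 51.6 ± 1.52 in control males. CG7358 averaged 37.8 ± 1.63, 35.8 ± 3.15, 38 ± 1.49 and 34.9 ± 1.82 CPM in the same groups and was not called. None of the 10 was called under dsxRNAi in either sex or in the average.

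Of the SR proteins and kinases around Tra and Tra2, 8 of 9 were tested. SRPK, a kinase of SR proteins, and Doa, a kinase known to act on the splicing of dsx, were called higher in females over the genotypes, by log2 0.23 and 0.16 (adjusted p = 0.00265 and 0.0171), and none was lower. The 2 of 8 stand beside 31.1% of all tested genes called in either direction, and the median log2 difference was 0.08 in the list, against 0.005 over all tested genes. The call of Doa was lost without control male 2. SRPK averaged 80.2 ± 5.04 CPM in dsxRNAi females, 79.6 ± 2.79 in control females, 67.8 ± 2.57 in dsxRNAi males and 68.2 ± 1.97 in control males. B52, an SR protein, was not called in any contrast, at 136 ± 5.16, 133 ± 2.58, 133 ± 3.95 and 122 ± 8.23 CPM in the same groups. Srp54 was lower under dsxRNAi in the average over the sexes (log2 -0.18, adjusted p = 0.0157), a call kept with each library left out.

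In the dosage compensation list, which Sxl controls through msl-2, all 9 genes were tested. Over the genotypes 4 were called lower in females, where 14.8% of all tested genes were called lower: roX1, roX2, msl-2 and msl-3. msl-2 stood at 10.3 ± 1.31 CPM in dsxRNAi females, 10.6 ± 2.02 in control females, 31.6 ± 0.265 in dsxRNAi males and 31.2 ± 0.888 in control males. roX1 averaged 0.671 and 0.547 CPM in dsxRNAi and control females, and 1147 and 1239 CPM in dsxRNAi and control males. roX2 had 0 counts in dsxRNAi females and 0 to 1 in control females, against 232 to 348 in dsxRNAi males and 363 to 468 in control males. msl-3 averaged 11.4 ± 0.310, 11.3 ± 0.240, 14.9 ± 0.633 and 15.9 ± 0.695 CPM in the order of the msl-2 values, while Clamp (56.8 to 59 CPM over the group means) and mle (36.3 to 39.6 CPM) were not called. None of the 9 was called under dsxRNAi within a sex, where the median log2 change was -0.01 in females and -0.06 in males (all tested genes -0.001 and -0.01). Unr was called lower in the average over the sexes (log2 -0.17, adjusted p = 0.0419), a call lost in 10 of the 12 fits with a library left out.

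Of 9 listed dsx targets and partners 7 were tested. The yolk protein genes Yp1, Yp2 and Yp3, activated by female Dsx in fat body, were called higher in females in both genotypes. Of all tested genes 7.76% were called higher in females under dsxRNAi and 10.7% in controls. Yp2 averaged 4.50 ± 2.54 CPM in dsxRNAi females and 20.3 ± 12.7 CPM in control females, and Yp3 4.57 ± 1.41 and 26.1 ± 19.4 CPM. Both falls were called in females (adjusted p = 0.0431 and 0.025), where 1.55% of all tested genes were called lower. Yp1 averaged 16.4 ± 11.6 CPM in dsxRNAi females and 48.9 ± 4.43 CPM in control females, a fall that was not called. The Yp3 call was lost with any of the 3 dsxRNAi females left out (adjusted p from 0.0114 to 0.114 over the 6 fits with a female library left out). The Yp2 call was lost without dsxRNAi female 2, dsxRNAi female 3 or control female 1 (adjusted p from 0.0231 to 0.167 over the same fits). Markers of fat body and hemocytes, the cells that make yolk protein or lie near them, summed to 6.87 to 10.6 CPM in dsxRNAi females and 16.03 to 22.6 CPM in control females, with all 6 detected and none of 4 tested called. Their part in the Yp result was not tested. The somatic dsx targets bab2 and bab1 were not called, at 97.8 ± 7.12 and 4.53 ± 0.762 CPM in dsxRNAi females, 92.5 ± 15.3 and 3.45 ± 0.650 in control females, 80.5 ± 14.6 and 4.73 ± 1.34 in dsxRNAi males and 79.2 ± 4.71 and 4.59 ± 0.408 in control males.

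**Figure D4:**
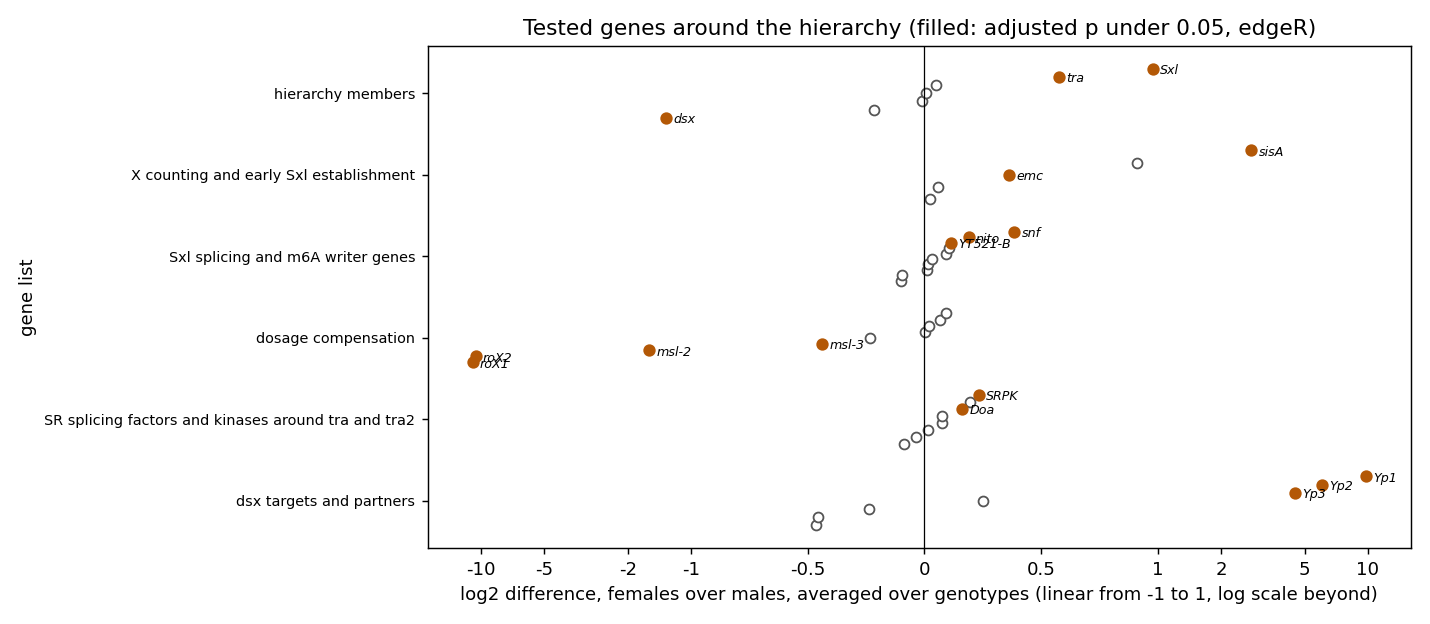
log2 difference of females over males, averaged over the genotypes, for each tested gene of the hierarchy and of 5 lists around it. The axis is linear from -1 to 1 and logarithmic beyond. Filled and named points passed edgeR's test, and they include Sxl (0.98), tra (0.58), dsx (-1.31), the yolk protein genes on the right and the roX genes on the left.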

How the data were processed

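Raw read counts per gene were deposited for 12 libraries in 1 table, on build dm6, made with TopHat2 2.0.11 and featureCounts per the submitters' processing notes. Its strand setting, annotation and filters are, in the sources used here, not given. Libraries were made from 200 ng of RNA with a directional poly-A kit and read as pairs of 100 bp, per the labels' protocols. The 171 rows without a symbol were tested but not named. Gene positions and exon lengths are from Ensembl release 115 on dm6 coordinates, which holds 17252 of the row identifiers, so lengths may differ from those used in counting.

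Low genes were removed with filterByExpr (minimum count of 10). Counts were scaled by TMM and fitted with 4 group means in 1 robust quasi-likelihood model (R 4.3.3, edgeR 4.0.16, limma 3.58.1, prior count 0.125) with 7 contrasts. Adjusted p-values are Benjamini-Hochberg over the genes tested in a contrast. The fit was checked on simulated counts in which 200 genes changed. Replicates differed by more than counting noise. Their numbers were not taken to pair the libraries. Alternatives were relative log expression scaling, other filters, DESeq2 1.42.0, a fit of only the groups compared, a replicate block and leaving out each library; the last of these was added later for the lists around the hierarchy, once values were known.

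The 7 genes, the lists and the tests were chosen with earlier results of these data known. Named genes are the 7, up to 4 called and 2 abundant uncalled genes per list, and the 3 most alike for dsx, Sxl, tra and fru. One gene that this rule names is not reported here. Of 125 listed genes 119 were found by symbol. Unr and l(3)73Ah, lds and the named markers fall outside that rule and were named after their values were seen. Plots used Python 3.11.15 with matplotlib 3.10.9.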

Additional observations from a re-analysis of the deposited data

How the results depend on the processing

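The calls of Sxl, tra and dsx between the sexes and of dsx in males kept their direction and their side of the threshold under every alternative run, each library left out included. With a library left out, dsx in males ran from -0.70 to -0.49 (log2; adjusted p 0.00709 to 0.0351), dsx averaged over the sexes from -0.37 to -0.27 with 0 to 1 of the 7 genes called, dsx in females from -0.15 to 0.072, tra in females from -0.114 to 0.033 and Sxl averaged over the sexes from -0.065 to 0.006. The number of all genes called then ran from 204 to 360 for dsxRNAi in females, 856 to 1195 in males, 637 to 1145 between the sexes under dsxRNAi, 1325 to 1890 in controls, 33 to 127 for the interaction, 1023 to 1529 for dsxRNAi over the sexes and 2485 to 3085 for sex over the genotypes. DESeq2 called 576 genes for dsxRNAi in females and 344 for the interaction, against 335 and 78 by edgeR, and a fit of only the female groups called 221. Of 420 values with a library left out and 273 under other settings, 35 changed sign, none of them called and none over 0.072 in size; for her between the sexes the averaged value was -0.001 under relative log expression scaling and -0.009 at a minimum count of 50. The others changed sign with a library left out. There tra2 ran from -0.019 to 0.159 for dsxRNAi in males, -0.155 to 0.024 for sex under dsxRNAi, -0.043 to 0.046 for dsxRNAi over the sexes and -0.042 to 0.047 for sex over the genotypes. her ran from -0.071 to 0.017 for sex under dsxRNAi, -0.048 to 0.074 for sex in controls, -0.108 to 0.038 for the interaction and -0.029 to 0.032 for sex over the genotypes. fru ran from -0.062 to 0.137 for dsxRNAi in females, and ix from -0.088 to 0.028 for sex in controls. The cause was not tested.

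Same-numbered libraries correlated above 0.1 in 4 of 18 pairs (-0.29 to 0.20), 3 of them the complete set of dsxRNAi females with control males (0.146, 0.159 and 0.195), groups that no contrast compares directly. In none of the group pairs compared did every number exceed 0.1, so the numbers were not taken to pair the libraries. With the replicate block, dsx in males was -0.62 (adjusted p = 0.0101), and 328, 1452, 1468, 1994, 67, 1416 and 2998 genes were called for dsxRNAi in females, dsxRNAi in males, sex under dsxRNAi, sex in controls, the interaction, dsxRNAi over the sexes and sex over the genotypes, with the same number of the 7 genes called in each. Depth limits sisA and sc, which had few counts in every group, and roX2 in females.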
